A study of Saccharomyces cerevisiae with 3 samples.

Results

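The deletion strains examined here lack a cytosolic ribosomal protein of Saccharomyces cerevisiae, the budding yeast. They were chosen by gene symbol: RPL or RPS with a number and an optional final A or B, and RPP0, RPP1A, RPP1B, RPP2A and RPP2B. The rule found 412 of the 18794 named probes and 128 of the 5325 named genes, and no measured value entered it. Of the 128 strains, 70 lack a protein of the large subunit, 53 a protein of the small subunit and 5 a protein of the P stalk. All 128 had a value on all 3 arrays and were tested, and all matched a gene of the RefSeq table.

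The ribosome joins a large subunit, which makes the peptide bond, to a small subunit, which reads the mRNA. Most yeast ribosomal proteins are encoded by a pair of nearly identical genes, named A and B, that arose by duplication of the genome. Deleting 1 copy usually leaves a living cell, whereas deleting an essential single-copy gene does not. The P stalk is a flexible arm of the large subunit, built of RPP0 and the P1 and P2 proteins, that recruits translation factors.

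Each array compared a pool of haploid double mutants, which carry a cin8D::URA3 allele beside a deletion of the collection, with a pool of haploid single mutants. CIN8 encodes a mitotic kinesin motor. Both pools of an array came from a transformed pool of heterozygous diploid deletion strains after sporulation, the double mutants from minimal medium without uracil and the single mutants from minimal medium with 0.1, 0.15 or 0.2% 5-fluoroorotic acid (5-FOA) in experiments 1, 2 and 3. Pool and medium cannot be told apart. Separate cultures or transformations for the 3 experiments are not stated in the labels, and the p-values therefore cover only array-to-array spread, which may be technical.

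A value is the log2 ratio of the 2 channels, centred on the median of its array and tag set. Every strain carries 2 short DNA tags, read by probes of tag set A and tag set B, and a strain's value is the mean of its tags. The direction of the deposited ratio is not given in the sources used here, so that no pool is assigned to either side. To mark the sides, the strain of KIP1, the other kinesin of the CIN8 family, stood at 5.52, 4.91 and 4.53 in experiments 1, 2 and 3, and the strain of CIN8 itself at -2.03, -2.14 and -2.51. Strains are called where limma's adjusted p lies under 0.05 over all 5204 strains tested. No intensities were used here, and 3 arrays set the precision.

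Ribosomal protein strains lay mostly on the negative side. Of the 128, 96 had a mean below 0 (75%), against 55.4% of all strains tested. Limma called 31 negative (24.2%), against a background of 17.4% of all strains tested. It called 10 positive (7.81%), against a background of 16.2%. In total 41 were called, against a background of 33.6%. The median of the 128 was -0.45, and it was -0.51, -0.42 and -0.46 in experiments 1, 2 and 3. The median of all strains tested was -0.10, or -0.06, -0.05 and -0.07 by experiment. Of the 128 strains, 5 were called at least 2-fold from 0 on the positive side and 15 on the negative side. The backgrounds were 5.34% and 9.47% of all 5204 strains tested. With any 1 experiment left out, 2 arrays remained and limma called 0 members. Among all strains the smallest adjusted p was 0.0758, 0.0584 and 0.0732 without experiments 1, 2 and 3, so no strain was called. An unadjusted p under 0.05 was then found in 48, 56 and 53 members, and the share of all strains is not given.

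Missing values moved with the side. All 10 positive strains had all 6 tag values, which are 2 tags on 3 arrays, against 24 of the 31 negative strains. This split was not particular to the members: over all strains 822 of 842 positive and 709 of 906 negative ones had all 6. Of the 128 strains, 90 had all 6 values (70.3%), against 80.6% of all strains. The 38 strains with fewer values had a median of -0.85 and a median SD of 0.84, against -0.34 and 0.27 for the 90. Over all strains the same split gave medians of -0.70 and -0.01. The part of missing tags in the negative medians was not tested. Among uncalled members, 26 had an SD over 1 and 16 a mean at least 1 from 0.

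**Figure D1:**
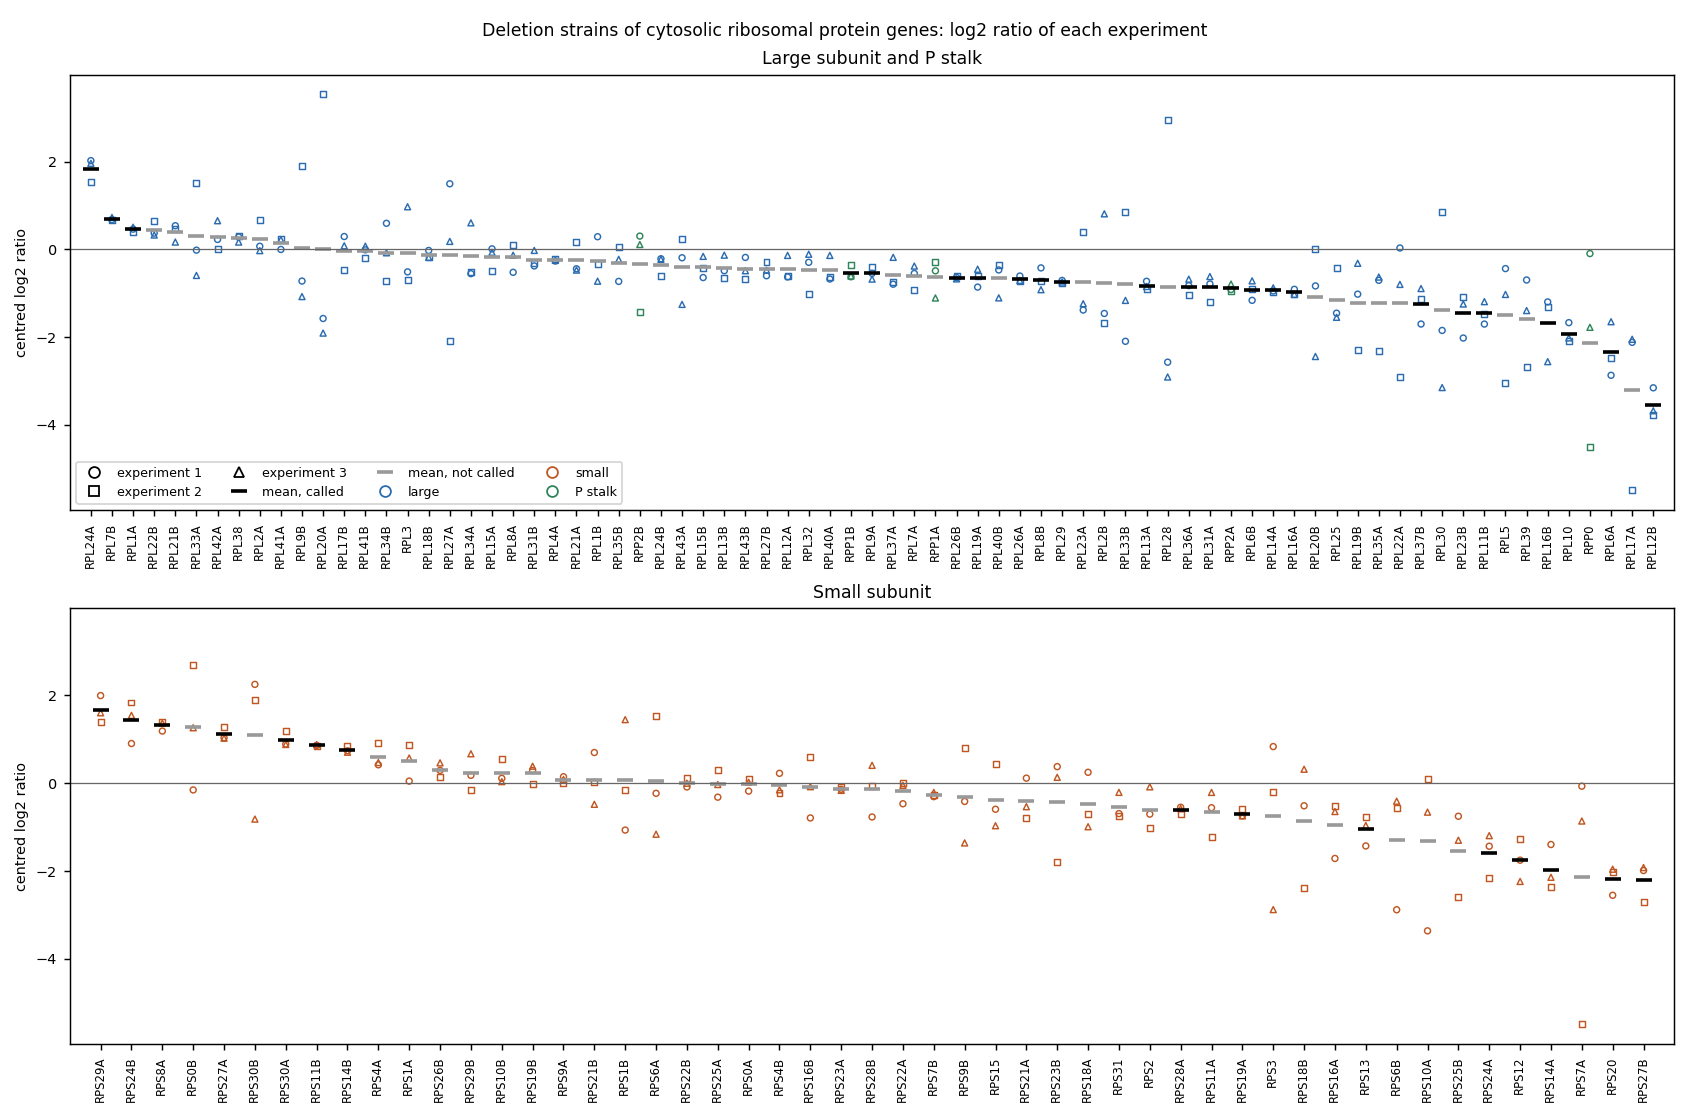
Centred log2 ratio (vertical axis) of 126 ribosomal protein strains in experiments 1, 2 and 3 (open symbols), with the mean as a black bar where limma called the strain and a grey bar where it did not; strains run from the highest to the lowest mean. The 10 called positive strains include 7 of the small subunit, and most of the wide spreads belong to strains that were not called.

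Large-subunit strains lay below small-subunit strains in median. Large-subunit strains were called positive in 3 (4.29%) and negative in 19 (27.1%) of 70 cases, with a median of -0.51. Small-subunit strains were called positive in 7 (13.2%) and negative in 10 (18.9%) of 53, with a median of -0.17, and these shares are near the backgrounds of 16.2% and 17.4%. By experiment the median was -0.60, -0.61 and -0.54 for the large subunit, and -0.23, -0.09 and -0.16 for the small subunit. The large-subunit median was thus the lower on every array. Among strains of duplicated genes alone, the medians were -0.45 for the 60 of the large subunit and -0.07 for the 46 of the small subunit. Strains are not replicates, and the difference between the subunits has no test.

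The positive side was led by a large-subunit strain. RPL24A encodes a protein of the large subunit that joins it late, in the cytoplasm, and its strain stood at 2.02, 1.54 and 1.96 (1.84 ± 0.26, SD, n = 3; limma, adjusted p = 0.012), or 3.58-fold from 0. All 3 arrays were well above 0. Its tags spread more widely than the mean shows, with 1.19 to 3.47 for tag A and 0.58 to 2.24 for tag B over the arrays, and neither tag set alone was called. RPL7B stood at 0.68, 0.68 and 0.73 and was called by both tags. RPL1A, of the L1 stalk, stood at 0.46, 0.40 and 0.50 and was called in tag set A but not in tag set B. Without centring RPL1A was no longer called (limma, adjusted p = 0.080).

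The other 7 positive strains lack small-subunit proteins. RPS29A stood at 2.00, 1.40 and 1.60 (1.67 ± 0.30, SD, n = 3; limma, adjusted p = 0.014), with tags at 1.71 and 1.62, both called. RPS24B stood at 0.90, 1.84 and 1.55, and RPS8A at 1.19, 1.40 and 1.37. Each of these was called by tag set A and not by tag set B, although both tag means were positive. RPS27A stood at 1.04, 1.29 and 1.03, RPS30A at 0.89, 1.20 and 0.88, and RPS11B at 0.86, 0.85 and 0.88, all called by both tags. These 3 strains lay above 0 on every array and varied little between arrays.

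RPS14B also belongs to the positive side, with a difference between its probes. Its protein sits in the platform of the small subunit, and the strain stood at 0.74, 0.85 and 0.71, called by both tags. The gene has 14 probes, 7 in each tag set, which do not read 1 tag alike. The first probe in probe order averaged -0.56 for tag A and -0.75 for tag B, while the other 12 averaged 0.78 to 1.18. The annotation used here names RPS14B for all of them and does not say whether they belong to 1 strain. Ribosomal protein genes with more than 1 such tag record numbered 8. Without all such genes of the table limma called 9 of 120 members positive and 29 negative, and the share of all strains is not given.

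On the negative side, RPL12B had the lowest mean but rests on 1 tag. RPL12 proteins bind at the base of the P stalk. The RPL12B strain stood at -3.15, -3.77 and -3.68 (-3.53 or below; limma, adjusted p = 0.0090). All 3 values of tag set B were at the lowest deposited ratio, 0.01, and gave -6.48 or below, so its SD is no measure of error, while tag set A gave 0.17, -1.07 and -0.86 and was not called. With the lowest ratios left out the strain stood at -0.59 and was not called (adjusted p = 0.206).

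RPL6A stood at -2.87, -2.47 and -1.65, with tags at -3.29 and -1.37, of which tag set A was called. RPS27B stood at -1.99, -2.70 and -1.92 and was called by both tags, at -2.58 and -1.83. RPS14A stood at -1.40, -2.36 and -2.14, with tags at -1.33 and -2.60 of which neither was called. Of its 27 spot values 1 in each tag set was at the lowest ratio, so the values of experiments 1 and 2 and the means are upper bounds, and without them the strain stood at -1.73 and was still called (limma, adjusted p = 0.030).

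Tags were compared as separate readings of a strain. Of the 90 members measured by both tags on all arrays, 6 were called positive by both, against a background of 11.2%, and 10 negative by both, against a background of 5.71%. The 10 ran from -2.20 to -0.64 in mean, and 7 lack large-subunit proteins. Examples chosen after their values were seen are RPL16A (-0.98 ± 0.06) and RPL14A (-0.93 ± 0.05), whose tags gave -0.97 and -0.99, and -0.94 and -0.93 (SD, n = 3). Across the 90 members the tags correlated with a Pearson's r of 0.39 and a Spearman's rho of 0.45, against 0.48 and 0.56 across 4293 strains. Both tags of a strain come from the same pools and arrays, and strains are not independent replicates.

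The widest gaps between tags were those of RPL12B, RPL21B, RPS23B and RPP2B. RPL21B was called positive in tag set A (2.55, 2.66 and 2.18) and negative in tag set B (-1.48, -1.72 and -1.85), so its mean of 0.39 describes neither tag. It was the 1 member called in opposite directions by its tags, against a background of 1.47%. RPS23B had tag means of -1.90 and 1.05 and RPP2B of -1.65 and 0.97, and limma called neither strain, in the mean or in a tag. The median gap between the tags was 0.43 among the 90 members and 0.33 among all strains with both tags.

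**Figure D2:**
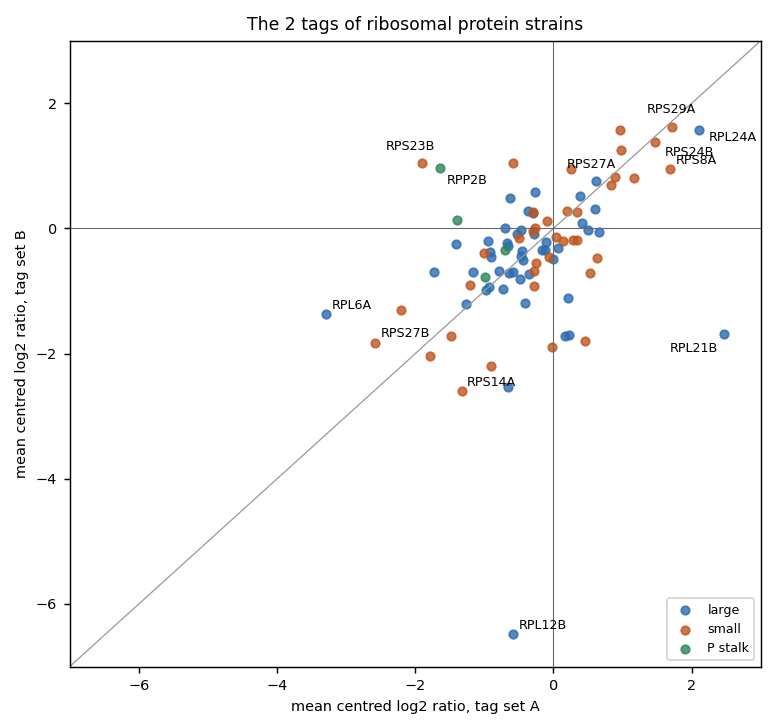
Mean centred log2 ratio over 3 arrays in tag set A (horizontal axis) against tag set B (vertical axis) for the 90 ribosomal protein strains measured by both tags on all arrays, coloured by subunit; the diagonal marks equal tags. RPS29A and RPS24B lie close to the diagonal, while RPL12B (-0.59 and -6.48) and RPL21B (2.47 and -1.68) lie far from it.

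Single-copy genes were next set apart, since an essential one leaves no living haploid. Textbook knowledge gave 14 of the 18 single-copy members as essential. All 14 had means below 0, and limma called 3 negative and 0 positive, against backgrounds of 17.4% and 16.2%. At an unadjusted p under 0.05 the counts were 5 and 0, where all 5204 strains tested gave 1380 negative and 1209 positive. Their median was -0.95 with a median SD of 0.67, against -0.10 and 0.23 over all strains tested. Only 2 of the 14 had all 6 tag values.

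The 3 called strains were RPS20, RPL10 and RPS13. RPS20 stood at -2.55, -2.03 and -1.96 with 4 of 6 tag values, and RPL10, whose protein is among the last to join the large subunit, at -1.67, -2.08 and -2.02 with 3 of 6, so that the tag differs between its arrays. RPS13 stood at -1.43, -0.77 and -0.96 with all 6, called in tag set A but not in tag set B. All 3 array means of each of these strains lay below 0.

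The other 11 were not called. RPP0, the core of the P stalk, stood at -0.10, -4.49 and -1.78, and RPL5, which binds 5S rRNA, at -0.44, -3.03 and -1.03. RPL30, which controls the splicing of its own transcript, stood at -1.85, 0.85 and -3.15, RPL28 at -2.57, 2.94 and -2.91, and RPS3, which lines the mRNA entry channel, at 0.84, -0.21 and -2.88. These 5 spread over more than 2 log2 units, and each had 3 to 5 of 6 tag values. RPL25, near the exit tunnel, stood at -1.45, -0.43 and -1.55 (adjusted p = 0.057), and RPL32, the other strain with all 6 values, at -0.29, -1.01 and -0.11. The means of the others were -0.60 for RPS2, -0.55 for RPS31, which is made as a fusion to ubiquitin, -0.38 for RPS15 and -0.08 for RPL3, of the peptidyl transferase centre.

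The 4 single-copy genes listed here as dispensable gave 2 called strains. RPS12 stood at -1.75, -1.27 and -2.24 (limma, adjusted p = 0.020), but its tags disagreed, at -2.76, 0.61 and -4.48 for tag A and -0.75, -3.15 and 0.00 for tag B, and neither was called alone. RPL29 stood at -0.71, -0.76 and -0.74 (-0.74 ± 0.03, SD, n = 3) and was called by both tags. RPL38 stood at 0.28, 0.30 and 0.17 and was not called. RPL39, a small protein of the exit tunnel, stood at -0.70, -2.69 and -1.39 (limma, adjusted p = 0.074), with 25 of 42 spot values present. Its tag set B alone was called at -2.53 or below, with 1 spot value of experiment 1 at the lowest ratio.

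All 5 strains of the P stalk had means below 0, with a median of -0.63. Limma called 2 negative and 0 positive, against backgrounds of 17.4% and 16.2%. The counts at an unadjusted p under 0.05 were 3 and 0, where all 5204 strains tested gave 1380 negative and 1209 positive. With 5 strains these counts set no share apart from the background. RPP2A stood at -0.91, -0.95 and -0.79 and was called by both tags. RPP1B stood at -0.62, -0.36 and -0.61 and was called in tag set A only. RPP1A (-0.63 ± 0.42), RPP2B (-0.34 ± 0.95) and RPP0 (-2.12 ± 2.22) were not called (SD, n = 3), although tag set A alone was called for RPP1A at -1.39. The stalk's median was -1.39 in tag set A alone and -0.11 in tag set B alone. These medians rest on different strains, since RPP0, at -2.56 in tag set A, was not tested in tag set B.

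Strains of A and B paralogs were compared within each array. Of 59 duplicated genes, 51 had both strains tested. In 4 pairs both strains were called negative, against a background of 3.03% of all pairs of tested strains. In 0 pairs both were called positive, against a background of 2.62%. The count was also 0 at an unadjusted p under 0.05, for which no background is given. In 3 pairs they were called in opposite directions, against a background of 5.63%. In 18 pairs limma called 1 strain, and in 26 it called neither. Backgrounds over all pairs of tested strains are not given for these counts, so they set no share apart.

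Within pairs, the strains ranged from nearly equal to more than 3 log2 units apart. The absolute difference, A minus B, had a median of 0.66, against 0.78 over all pairs of tested strains. It was at least 1 in 19 of the 51 pairs, against a background of 39.5%. The 3 values of A and the 3 of B did not overlap in 19 pairs, against a background of 58.1%, and 12 of these were also at least 1 apart, against a background of 34.2%. Across the 51 pairs Pearson's r between the A and B means was -0.03 and Spearman's rho -0.06, as a description of strains that share their arrays. A stood above B in 25 pairs and below it in 26. With 3 arrays the exact sign-flip permutation test cannot go below a two-sided p of 0.25, so it gives no test of a single pair, and the differences are given with their SD only.

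**Figure D3:**
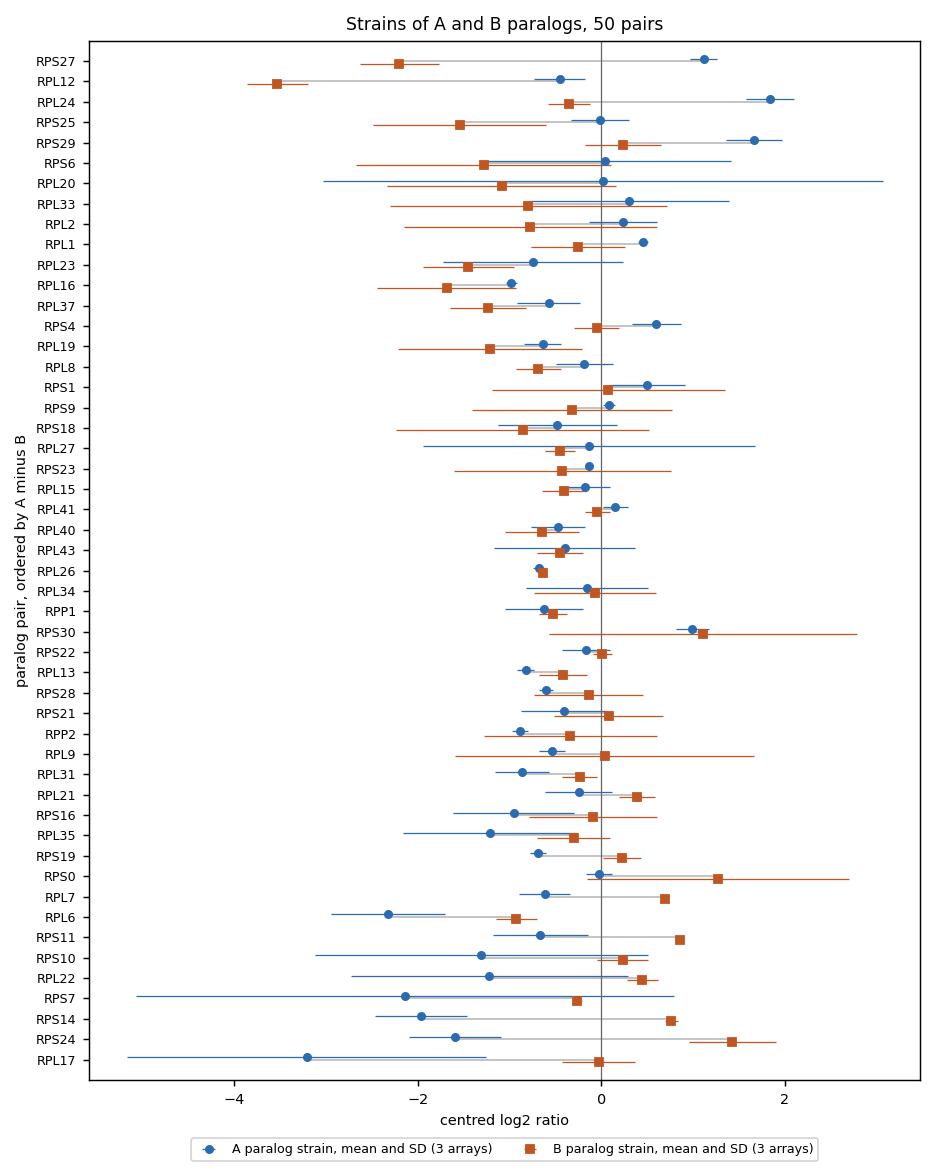
Mean centred log2 ratio with SD over 3 arrays (horizontal axis) of the A strain (circles) and the B strain (squares) of 50 paralog pairs, ordered from the highest to the lowest difference A minus B. RPS27 (3.32) stands at the top and RPL17 (-3.18) at the bottom, and the RPS24, RPS14 and RPS27 pairs lie on opposite sides of 0.

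The 3 pairs called in opposite directions were RPS27, RPS24 and RPS14, all of the small subunit. RPS27A exceeded RPS27B by 3.02, 3.99 and 2.95 (3.32 ± 0.58, SD, n = 3), at 1.12 against -2.20 in mean, with differences of 3.56 for tag A and 3.08 for tag B. RPS24A stood at -1.44, -2.16 and -1.19, against the positive RPS24B values given above, a difference of -3.03 ± 0.87 with -2.96 and -3.09 in the tags. Neither tag set alone called RPS24A, and its tag A stood at 0.02 in experiment 3. RPS14A and RPS14B differed by -2.73 or below, with -2.16 or below and -3.30 or below in the tags, RPS14B with the divergent probes described above. In each of these pairs the 6 tag values of A and the 6 of B did not overlap. Of the 29 pairs with all 12 tag values, 4 had no such overlap, against a background of 29.2%.

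The fourth of these pairs was RPL24. RPL24A exceeded RPL24B by 2.24, 2.15 and 2.18 (2.19 ± 0.04, SD, n = 3), with 2.81 and 1.57 in the tags. RPL24B stood at -0.21, -0.61 and -0.22 and was not called in the mean, but tag set A alone was called at -0.70, against 0.00 in tag set B.

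The other pairs with the widest differences rest on fewer tag values or on 1 array. RPL17A stood at -2.12, -5.48 and -2.05 with 5 of 6 tag values, against 0.29, -0.47 and 0.08 for RPL17B, a difference of -3.18 ± 1.59, or -2.27 without experiment 2. RPS7A stood at -0.07, -5.49 and -0.86 with tag set A alone, against -0.31, -0.27 and -0.21 for RPS7B. Their difference of -1.88 ± 2.93 was -0.21 without experiment 2. RPL22A stood at 0.03, -2.90 and -0.80, against 0.37, 0.64 and 0.33 for RPL22B, a difference of -1.67 ± 1.67, or -0.73 without experiment 2. None of these 6 strains was called in the mean, and tag set B alone was called for RPL17A, at -3.88.

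RPL12A and RPL12B differed by 3.08 or more, from the tag of RPL12B at the lowest ratio, and by -0.08 in tag set A alone. RPL12A, systematic name YEL054C, is the 1 member on the left arm of chromosome V, 7 numbers of systematic names from CIN8. Deletions close to CIN8 can be inherited together with its locus. The RPL12A strain stood at -0.63, -0.60 and -0.14 and was not called (adjusted p = 0.093). The other 4 members of chromosome V lie on the right arm.

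The 4 pairs in which both strains were called negative included RPL6, RPL16 and RPL26, named after their values were seen. RPL26A stood at -0.61, -0.72 and -0.71 and RPL26B at -0.64, -0.61 and -0.67, a difference of -0.04 ± 0.07 (SD, n = 3), although the tags gave differences of 0.27 and -0.34. RPL16A and RPL16B differed by 0.71 ± 0.72, and RPL6A and RPL6B by -1.40 ± 0.41. RPL16A had all 6 tag values, and RPL16B had 4. RPL6 strains did not overlap, with the A strain below the B strain on every array.

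The slope over the 5-FOA percentage was also fitted. Limma called 0 of 128 members and 0% of all 5204 strains, and 7 members had an unadjusted p under 0.05, against a background of 5.05%. The smallest adjusted p of a member was 0.945. Each percentage was used in 1 experiment, so that percentage and experiment cannot be told apart.

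Other genes of translation and ribosome synthesis were grouped in 6 lists, whose counts of called strains stand against the same backgrounds of 16.2% positive and 17.4% negative. In nonessential ribosome assembly factors, 11 of 31 strains were called negative and 0 positive (17 and 0 at an unadjusted p under 0.05), with a median of -0.61 and 7 called negative by both tags. RAI1 (-2.35 ± 0.60), RRP6 (-2.26 ± 0.25), a nuclear exosome nuclease, and NOP12 (-2.05 ± 0.37) were the lowest called (SD, n = 3). Essential assembly factors were called negative in 13 and positive in 2 of 45 cases, with a median of -1.14. LAS1 (-5.30 or below), RIO1 (-4.10 ± 1.61) and MAK5 (-3.35 ± 0.60) were the lowest called, and 24 of 53 named genes had all 6 tag values. LAS1 had tags at -4.65 and -5.95, and tag set B reached the lowest ratio, so its SD is no measure of error. Values at the lowest ratio are not listed for strains of these lists, so other low means may be upper bounds too. The positive strains were ENP1, with a mean of 5.63 and 1 complete tag, and NOP4 (1.49 ± 0.41), whose tags gave 3.64 and -0.65.

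Translation factor strains were called negative in 8 and positive in 3 of 33 cases, with a median of -0.74. In this list and those below, essential and nonessential genes were not separated. The positive strains were EAP1 (1.77 ± 0.28), which binds the cap-binding factor eIF4E, and TIF1 (1.60 ± 0.16) and TIF2 (0.48 ± 0.15), which both encode the helicase eIF4A. The lowest called were GCD11 (-2.54 ± 1.27), of the initiation factor that delivers the first tRNA, HEF3 (-2.32 ± 0.53) and EFT2 (-2.26 ± 0.35), which encodes an elongation factor. EFT2 had tags at -3.92 and -0.60, and GCD11 and HEF3 lacked tag values. Without centring TIF2 stood at 0.32 and was not called (limma, adjusted p = 0.101).

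Ribosome-associated proteins were called positive in 4 and negative in 2 of 17 cases, with a median of 0.25. ZUO1 (2.17 ± 0.37) and SSZ1 (0.94 ± 0.16), partners in a chaperone complex on the ribosome, and DOM34 (0.46 ± 0.08), which rescues stalled ribosomes, were positive. GCN1 (-1.98 ± 0.86) and EGD2 (-1.41 ± 0.16), of a complex that binds nascent chains, were negative, GCN1 without a complete tag set B. SSZ1 rested on tag set A (1.79, against 0.08 in tag set B), and without centring DOM34 stood at 0.30 and was not called (limma, adjusted p = 0.084).

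Regulators of ribosome synthesis were called positive in 1 and negative in 5 of 18 cases, with a median of -0.32. SFP1 (-2.48 ± 0.62), an activator of ribosomal protein genes, had tags at -0.80 and -4.16. RPA12 (-2.18 ± 0.74), of RNA polymerase I, had tags at -2.14 and -2.22, and CRF1 stood at -0.81 ± 0.32. TOD6 was the 1 positive strain, at 0.66 ± 0.20, and was not called without centring (0.49; limma, adjusted p = 0.052).

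Mitochondrial ribosomal proteins had the opposite sign of median, 0.25, and were called positive in 8 and negative in 5 of 55 cases. MRPS35 (1.85 ± 0.32), MRPL4 (1.26 ± 0.51) and MRPL10 (1.05 ± 0.39) led the positive side. MRPL36 (-3.10 or below) had tags at -0.57 and -5.62, of which tag set B reached the lowest ratio. MRPS5 (-1.07 ± 0.38) and MRPL7 (-0.94 ± 0.35) had tags of opposite sign. Their median lay above that of the cytosolic ribosomal proteins on all arrays, at 0.31, 0.20 and 0.32 in experiments 1, 2 and 3, and 89.1% of these strains had all 6 tag values. No difference between these lists was tested.

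**Figure D4:**
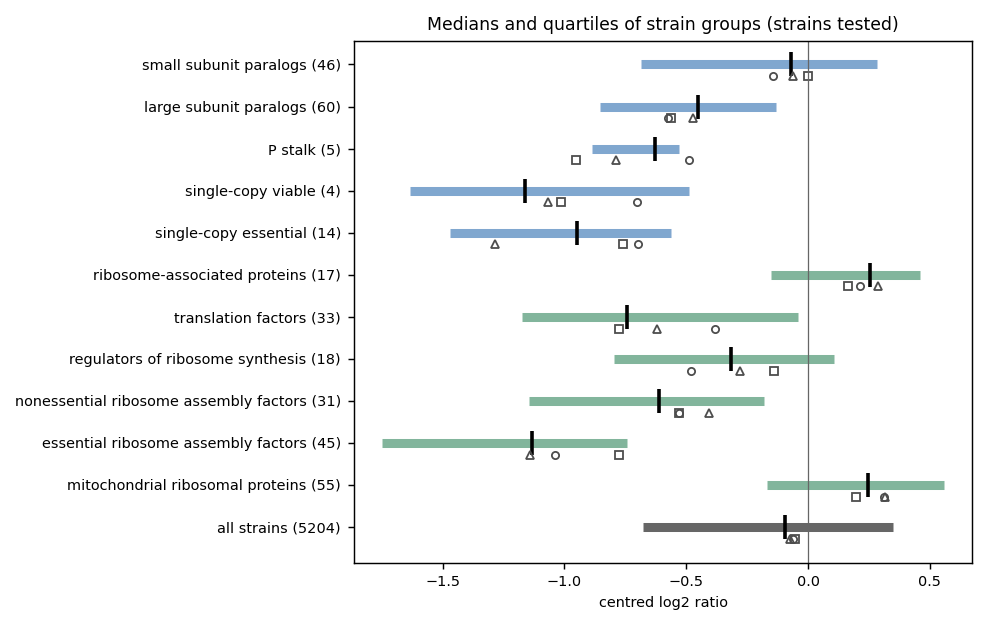
Median (black bar) and quartiles (coloured band) of the mean centred log2 ratio in groups of tested strains, with the median of each experiment below as a circle (1), square (2) or triangle (3); RPP0 is in both the P stalk and the single-copy essential group. Small-subunit paralogs (-0.07) lie near all strains (-0.10), large-subunit paralogs (-0.45) and essential single-copy strains (-0.95) lie lower, and mitochondrial ribosomal proteins (0.25) lie higher.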

How the data were processed

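The authors amplified tags from genomic DNA, labelled those of double mutants with Cy3 and those of single mutants with Cy5, and read the arrays with GenePix 5.1, per the labels' protocols. They deposited log2 ratios, with formula, direction and normalization not given in the sources used here. From these, 36 placeholder values at a ratio of 999999 were left out, 2 of them in ribosomal protein probes, and each array and tag set was centred on its median over named probes. Repeated spots gave a mean for each tag, the tags a mean for each strain, and the 5204 strains present on every array were set against 0 with limma 3.58.1 in R 4.3.3 (lmFit, eBayes, two-sided, Benjamini-Hochberg over 5204 strains). On simulated data of 5204 strains, 50 of 100 strains shifted by 1 and 68 of 100 shifted by 2 were called, and 9 unshifted ones. Only these 200 strains were shifted, whereas 1748 were called in the data, so the simulated rates may not hold for this fit. Gene names came from the platform annotation and RefSeq R64.

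The members and lists were chosen with earlier results of these data known, from textbook knowledge. The rule for named strains took up to 12 called members on the positive and 8 on the negative side, all single-copy members, the 8 pairs furthest apart, RPL12A, the 4 widest tag gaps, up to 3 called strains per list and side, and KIP1 and CIN8. Strains named outside it were chosen after their values were seen. Alternatives covered centring, tags, spots, lowest ratios, experiments, 5-FOA and a robust fit. The values of 1 paralog pair that entered all counts are not reported here. No sequences are shown, and Python 3.11.15 with pandas 2.3.3, numpy 2.4.6 and matplotlib 3.10.9 served for tables and plots.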

Additional observations from a re-analysis of the deposited data

How the results depend on the processing

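Arrays could not be paired, because all of them form 1 group, with no groups of samples to pair. Only the 2 pools of an array and the strains of a paralog pair were compared within arrays. Background correction and a filter on dim spots were not run, since no intensities were used here. Leaving out genes with more than 1 tag record was chosen after seeing the data. Without experiments 1, 2 or 3, all counts of calls, by both tags, by subunit, in pairs and in the other lists, were 0 (0 to 0). The smallest adjusted p-values over all strains were 0.0758, 0.0584 and 0.0732 in these limma fits. With 5-FOA as a covariate limma called 6 members, 0 positive (11 at an unadjusted p under 0.05) and 6 negative, 4 of the large and 2 of the small subunit. It called 0 positive and 2 negative by both tags, 0 pairs in either way, and 2 positive and 12 negative strains of the other lists. The smallest adjusted p over all strains was then 0.0469, close to the threshold of 0.05. Counts of all strains called are not given for this or the following settings, so these member counts have no background. With the tag value nearer 0 it called 22 members, 6 positive, 1 of them of the large subunit, and 16 negative, 2 of them of the small subunit, with 1 pair opposite, 0 pairs alike, 12 pairs at least 1 apart, and 8 and 17 strains of the other lists. Medians were then -0.27 for members, -0.35 large subunit, -0.41 essential and -0.19 paralogs. Without centring, where array medians lay at -0.184 to -0.152, 9 members were positive and 39 negative, and medians were -0.62 for members, -0.67 large, -0.34 small and -0.54 paralogs. Tag set A alone gave medians of -0.36 for members, -0.46 large, -1.39 P stalk and -1.28 essential, with 12 pairs at least 1 apart and 1 opposite. Tag set B alone gave -0.35, -0.41, -0.11 and -0.38, with 4 negative small-subunit strains and 1 opposite pair. Tag sets A and B alone tested 101 and 111 members, so their medians rest on different strains. Strains with both tags on all arrays gave -0.34 for members, -0.45 large and -0.070 small, 11 pairs at least 1 apart and 2 called alike. The medians of members and of both subunits stayed negative under every setting run. Signs changed for single strains and pairs. With the tag nearer 0, MRPL7 stood at 0.073, MRPS5 at 0.93, NOP4 at -0.65, RPL21B at -1.68 and RPL24B at 0.00039. In tag set B alone these 5 had the same values, and RPL17B stood at 0.24, RPP2B at 0.97 and RPS23B at 1.05. In tag set A alone the RPL12 difference was -0.083 and that of RPL26 0.27. Without 1 experiment, RPL28 stood between -2.74 and 0.18, RPL3 between -0.60 and 0.23, RPL17B between -0.19 and 0.19, RPP2B between -0.66 and 0.21, RPS23B between -0.83 and 0.26 and RPS3 between -1.54 and 0.31, and 16 to 26 pairs were at least 1 apart. Where a value moved, the cause was not tested.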

Other observations

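Of the 8 ribosomal protein genes with more than 1 tag record per tag set, 3 besides RPS14B had a value of every probe on every array, RPL22B, RPL41B and RPL37B, named after their values were seen. RPL22B, which was not called, had probes at -0.13 and 0.89 in tag set A and at 0.11 and 0.91 in tag set B, each a mean over 3 arrays. RPL41B had probes at 0.12 and -0.84 in tag set A and at 0.38 and 0.17 in tag set B. RPL37B, which was called at -1.24 ± 0.42 (SD, n = 3; limma, adjusted p = 0.028), had probes at -0.77 and -1.75 in tag set A and at -1.61 and -0.82 in tag set B. The means given for these genes average all of their probes.

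Experiment 2 held the value farthest from the others in RPL17A, RPS7A, RPP0, RPL28 and RPL20A, 5 strains chosen after their values were seen. RPL20A stood at 3.53 there, against -1.57 and -1.91 in experiments 1 and 3. Across the 128 members Pearson's r was 0.63 between experiments 1 and 3, 0.37 between 1 and 2 and 0.37 between 2 and 3, against 0.69, 0.63 and 0.66 across all strains tested, as descriptions over strains that share their pools.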
